A study of Homo sapiens with 16 samples.

Results

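Collagens are the fibre- and network-forming proteins of the extracellular matrix, and the 44 genes described here are the protein-coding entries of the count table, out of 58735 genes in all, whose symbol reads COL, a number, A and a number. They were followed across 16 poly(A) RNA-seq libraries of 4 human breast cancer cell lines, with 2 libraries in each of 8 groups. CAL148 was grown as monolayers only. HCC1806 was grown as spheroids for 10 or 20 days and as monolayers. ZR-75-30 was grown as monolayers only, and BT474 as day 10 spheroids, day 20 spheroids and monolayers. HCC1806 and CAL148 are commonly used as triple-negative lines, and BT474 and ZR-75-30 as lines with ERBB2 amplification. HCC1806 and ZR-75-30 were kept in RPMI 1640 and BT474 and CAL148 in DMEM, both with 10% fetal bovine serum, so a line cannot be told apart from its medium where the media differ. The labels name no drug and no genetic change in any group. Groups were read from the titles of the libraries. A separate treatment label says monolayers throughout, for the 8 libraries titled as spheroids too. The labels do not say whether the 2 libraries of a group came from separate cultures, so p-values measure only the spread between these libraries.

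A collagen molecule is a triple helix of chains that are hydroxylated and folded in the endoplasmic reticulum, secreted, trimmed and, for fibril-forming types, crosslinked by lysyl oxidases. Epithelial cells typically make the basement membrane type IV network, the transmembrane collagen XVII of hemidesmosomes and the anchoring fibril collagen VII, while fibroblasts make most of the fibrillar collagen of the breast stroma. The labels name no cell type beside the cancer line in any culture. Levels are given as normalised CPM, the usual depth-scaled count, on library sizes adjusted by the trimmed mean of M values (TMM), or as raw counts for genes with few reads. The deposited FPKM, which also divides by gene length, is used only to set genes beside each other. A gene is called higher or lower at an adjusted p under 0.05 in edgeR's quasi-likelihood test, adjusted over all genes tested. Fold changes are log2 with their standard error.

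Library totals ran between 29696358 and 72489002 counts, so 3 counts correspond to 0.0414 to 0.101 CPM per library before TMM adjustment. Collagens took 0.0155% and 0.0246% of counts in CAL148. In HCC1806 they took 0.216% and 0.213% in day 10 spheroids, 0.243% and 0.228% in day 20 spheroids, and 0.0649% and 0.245% in monolayers. The share was 0.00735% and 0.0132% in ZR-75-30 and 0.0361% to 0.0481% in BT474. The 2 HCC1806 monolayer libraries stand apart from each other. The SD of the difference between replicates over collagens was 1.5 on the log2 scale there, against 0.217 to 0.436 in the other HCC1806 and BT474 groups, and mitochondrial genes took 14.95% of counts in replicate 1 against 0.559% in replicate 2. Replicate 2 of ZR-75-30, at 17.7% mitochondrial counts, had the fewest collagens with 10 or more counts, 14. All 5 epithelial markers were above 1 CPM in every library. Of 12 fibroblast markers, 2 to 5 reached 1 CPM in a library. Their summed level was 27.4 and 27.4 CPM in HCC1806 day 10 spheroids, 31.3 and 36.3 CPM in day 20 spheroids, and 21.6 and 14.8 CPM in monolayers. It was 43.3 to 52.0 CPM in BT474 spheroids against 32.7 and 37.4 CPM in BT474 monolayers. PDGFRA, PDGFRB, FAP and DCN were at 0 in all 6 BT474 libraries. None of the 10 fibroblast markers tested in HCC1806 was called in spheroids of either day.

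The lines carried different collagen sets. Per length, COL6A2 led in CAL148 at 6.43 ± 0.90 FPKM (SD, n = 2), followed by COL4A5 at 2.52 ± 1.39 and COL7A1 at 2.04 ± 1.83. These 2 followers do not differ beyond their spread. COL17A1 had the highest mean of the HCC1806 collagens, at 83.1 ± 2.74 FPKM in day 10 spheroids, 92.5 ± 0.69 FPKM in day 20 spheroids and 94.9 ± 97.7 FPKM in monolayers (SD, n = 2 each). It made up 34.9% of the summed collagen FPKM on day 10 and 35.6% on day 20. In monolayers it was 20.8% in replicate 1, where COL6A2 was first at 34.2 FPKM against 25.8 FPKM for COL17A1, and 58.9% in replicate 2. COL6A1 and COL6A2 came next in spheroids, at 28.5 ± 0.70 and 25.9 ± 0.21 FPKM on day 10. In ZR-75-30 the first was COL9A2 at 7.11 ± 0.88 FPKM and the second COL18A1 at 3.23 ± 1.61. COL12A1 had the highest mean in BT474, at 12.1 ± 1.05 FPKM in day 10 spheroids, 9.06 ± 1.13 FPKM in day 20 spheroids and 17.7 ± 7.16 FPKM in monolayers, with COL1A1 second by mean in each group. COL1A1 was first in day 20 replicate 1, and COL9A2 second in monolayer replicate 1. Of the 44 genes, 21 reached a group mean of 5 CPM and 16 stayed below 100 counts in every library.

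**Figure D1:**
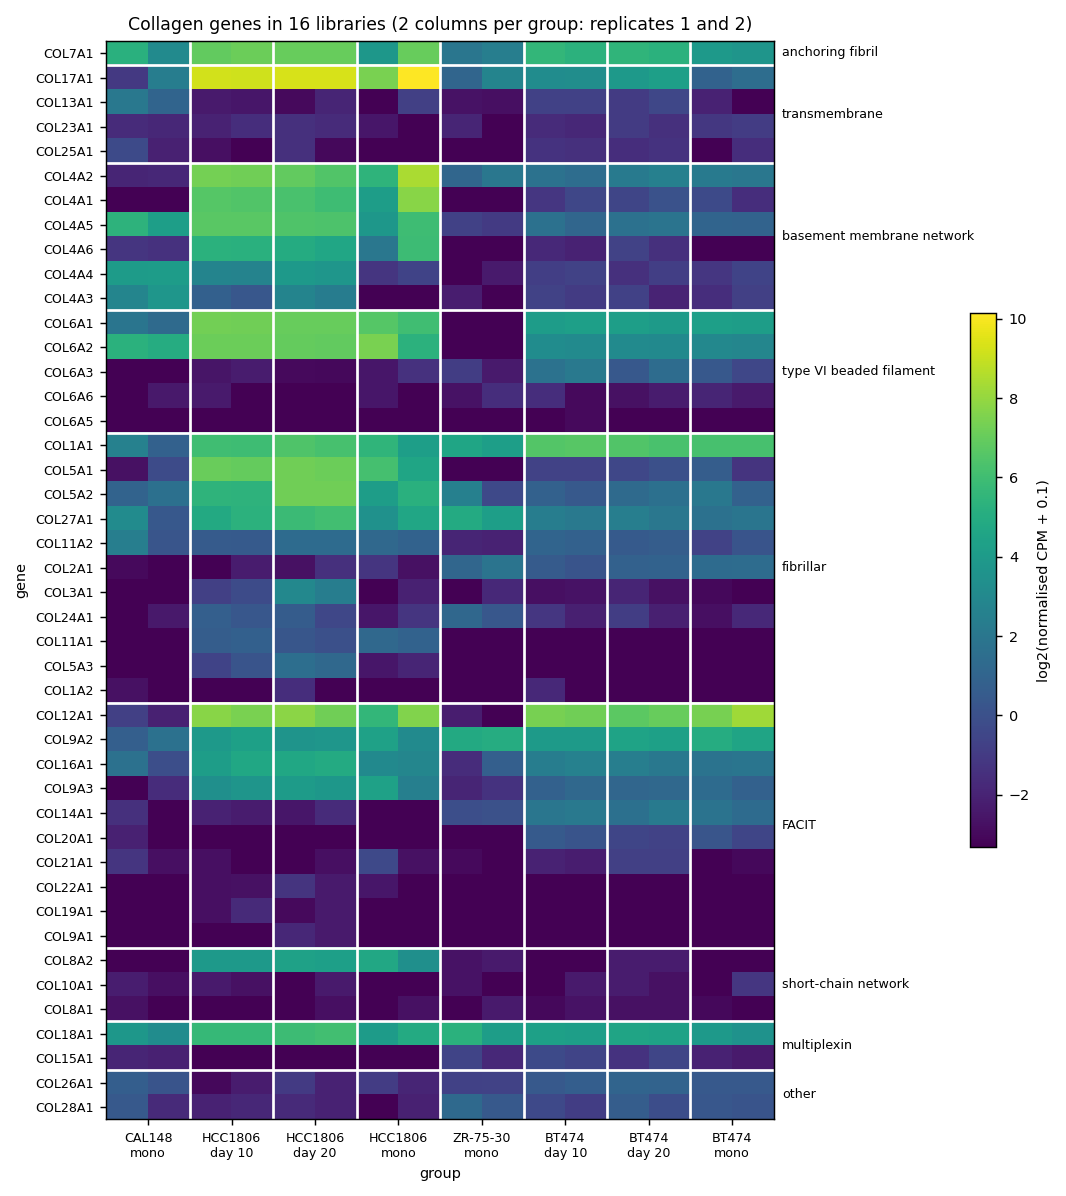
Heat map of all 44 collagen genes (rows, by structural class) in the 16 libraries (columns, 2 per group), coloured by log2(normalised CPM + 0.1). COL17A1 is bright in all 6 HCC1806 columns, COL4A1 is dark in all 4 CAL148 and ZR-75-30 columns, and the 2 HCC1806 monolayer columns differ from each other.

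Spheroids of both lines had more collagen genes called higher than lower. In HCC1806 day 10 spheroids, 6 of 36 tested collagens were higher than in monolayers and 0 were lower, against 5.14% of all 20929 genes called higher and 3.58% called lower. On day 20 the count was 10 higher and 0 lower of 36, against 6.24% and 4.85% of all genes. BT474 day 10 spheroids had 8 higher and 2 lower of 32 tested collagens, against 8.02% and 6.57% of 17447 genes, and day 20 spheroids had 5 higher and 0 lower, against 8.95% and 8.65%. The median log2 fold change over the tested collagens was 0.66 on both days in HCC1806, and 0.41 and 0.37 on days 10 and 20 in BT474, where all genes had medians of 0, 0, -0.00131 and 0.00223 in the same order. COL18A1 was called higher in all 4 of these comparisons. Of 4 fibroblast markers tested in BT474, 2 were higher on day 10, TAGLN and VIM, and 0 on day 20, and their part was not tested. In bulk RNA, more cells of a kind and more transcripts per cell cannot be told apart.

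These counts depend on the libraries that set the spread. With the 6 HCC1806 libraries fitted alone, edgeR called 0 collagens on either day, and with 1 HCC1806 monolayer library left out it called far more. The share of all genes called is not given here for any fit that left out a library. Counts from such fits therefore show how the calls depend on the libraries, not a trait of collagens. The fits that lost an HCC1806 day 10 library called 2 on day 10, those that lost a BT474 library called 3, and those that lost a day 20 library called 3 on day 20. For BT474, leaving out day 10 replicate 1 left 3 calls and replicate 2 left 2 on day 10. On day 20 the count was 9 without either monolayer library and 3 without day 20 replicate 1. A fit of all 12 HCC1806 and BT474 libraries together, whose spread includes the HCC1806 monolayers, called 0 in BT474 on both days. In HCC1806 the calls of COL4A4 on both days and of COL4A3 on day 20 held with any single library left out, and in BT474 those of COL17A1 and COL7A1 did. COL4A3 on day 10 was lost without day 10 replicate 1, COL16A1 without replicate 2 of the spheroid group of either day, and COL3A1 without day 20 replicate 1. COL5A2, COL5A3, COL18A1 and COL27A1 were lost without either HCC1806 day 20 library.

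**Figure D2:**
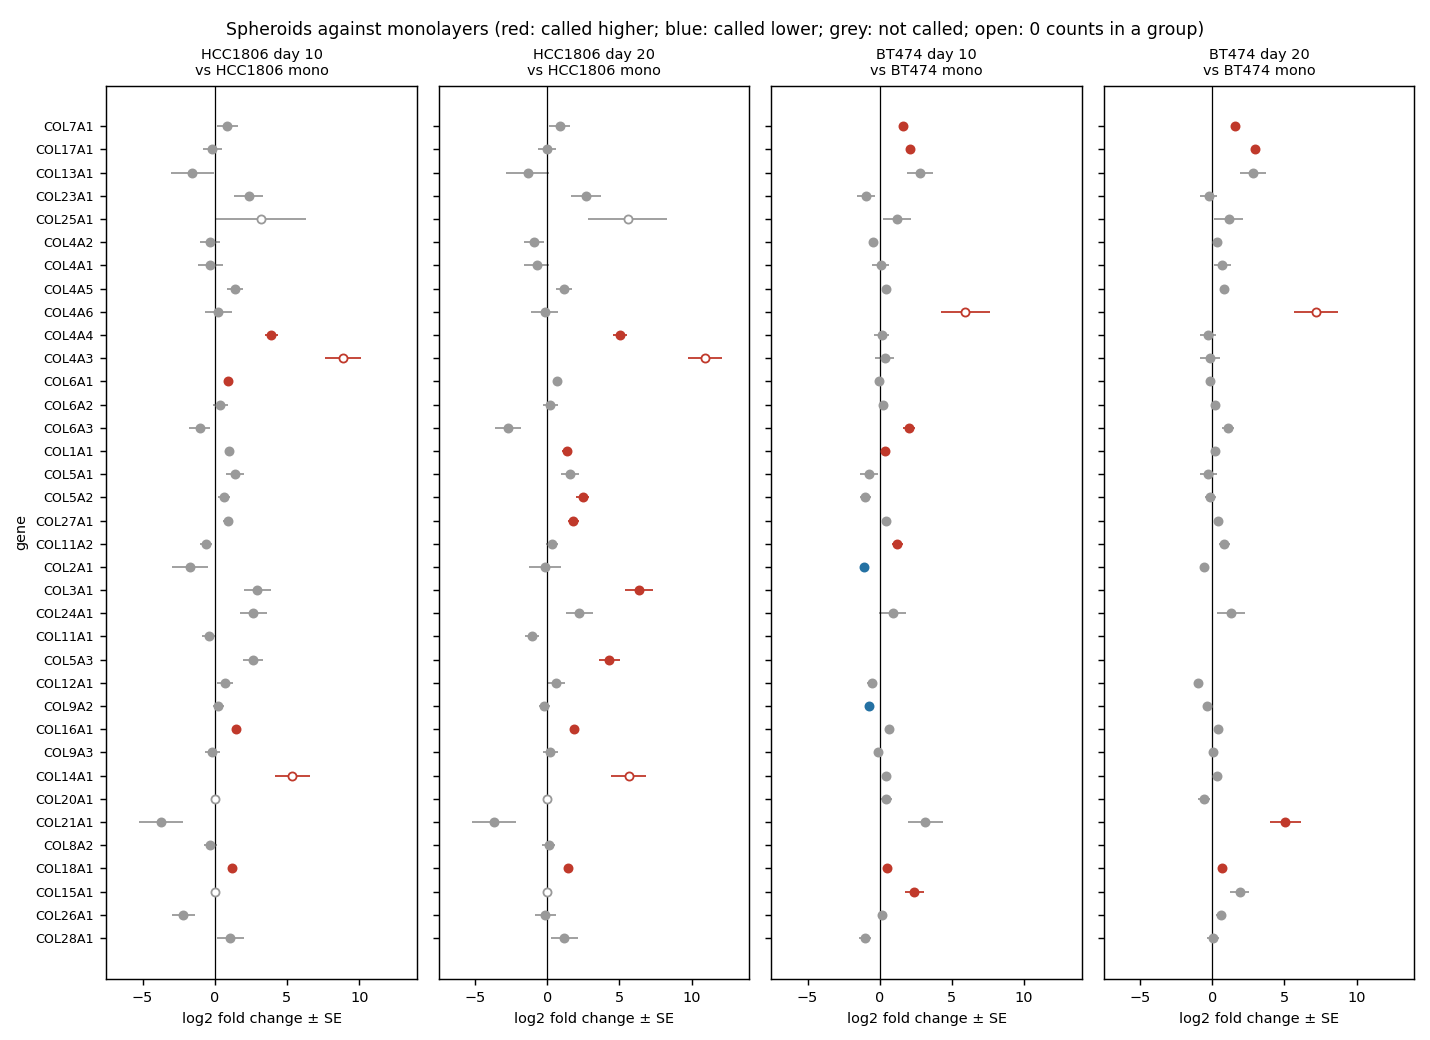
Log2 fold change with its standard error for each tested collagen (rows) in spheroids against monolayers of the same line. Red points were called higher, blue points lower and grey points not called at an adjusted p under 0.05; open points have 0 counts in a group, so their fitted value depends on the prior count. In HCC1806 6 and 10 genes are red on days 10 and 20 and 0 are blue, and in BT474 8 and 5 are red and 2 and 0 are blue.

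Against each HCC1806 monolayer library on its own, some collagens were called in the same direction and some in opposite ones. The rest were called in only 1 of the fits or in neither. On day 20, 12 genes were called higher against either library, COL1A1, COL3A1, COL4A3, COL4A4, COL5A1, COL5A2, COL5A3, COL6A1, COL14A1, COL16A1, COL18A1 and COL27A1, which include the 10 called with both libraries. Another 5 were called in opposite directions, COL4A1, COL4A2, COL4A6, COL6A2 and COL17A1. COL17A1 had a log2 fold change of -0.90 without replicate 1 and 1.91 without replicate 2, and COL6A2 1.56 and -0.48. On day 10, 8 genes were higher against either library, COL1A1, COL3A1, COL4A3, COL4A4, COL4A5, COL6A1, COL16A1 and COL18A1, and 6 took opposite directions, the same 5 and COL9A3. No collagen was called lower against both. In these fits the lone library is assumed to vary like the other groups. The direction of COL4A1, COL4A2, COL4A6, COL6A2 and COL17A1 in HCC1806 spheroids against monolayers therefore depends on which monolayer library is used.

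**Figure D3:**
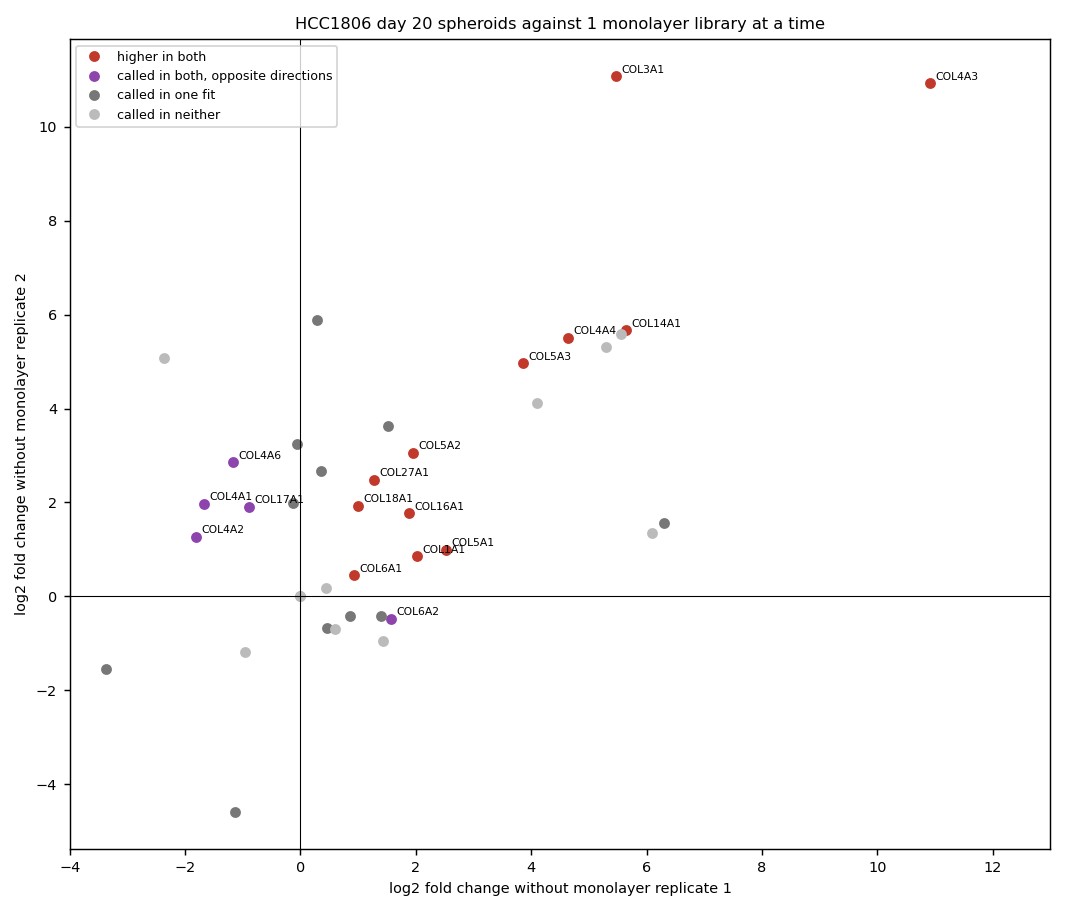
Log2 fold change of each tested collagen in HCC1806 day 20 spheroids against monolayers, with monolayer replicate 1 left out (horizontal axis) and with replicate 2 left out (vertical axis). The 12 genes called higher in both fits lie in the upper right, and the 5 called in opposite directions lie in the upper left or lower right; values of COL4A3, COL14A1 and of COL3A1 on the vertical axis are fitted against 0 counts.

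Collagen XVII and collagen VII, which hold basal epithelial cells to the basement membrane, were abundant in HCC1806 and rose in BT474 spheroids. COL17A1, the transmembrane collagen of hemidesmosomes (ENSG00000065618, chr10:104031286-104085957 on GRCh38, minus strand), had 0.377 and 5.17 normalised CPM in CAL148. HCC1806 had 596 and 572 in day 10 spheroids, 645 and 645 in day 20 spheroids and 173 and 1132 in monolayers. ZR-75-30 had 2.01 and 6.53, and BT474 9.27 and 9.67 in day 10 spheroids, 15 and 19.4 in day 20 spheroids and 1.76 and 2.69 in monolayers. Every BT474 spheroid library was above both monolayers, with a log2 fold change of 2.09 ± 0.22 on day 10 (adjusted p = 0.000136) and 2.95 ± 0.22 on day 20 (adjusted p = 1.36e-05), or 4.25-fold and 7.70-fold. COL7A1, whose protein forms the anchoring fibrils (ENSG00000114270, chr3:48564073-48595267, minus strand), had 37.7 and 8.51 CPM in CAL148. HCC1806 had 119 and 137 in day 10 spheroids, 129 and 130.2 in day 20 spheroids and 13.7 and 127 in monolayers. ZR-75-30 had 3.87 and 5.31, and BT474 47.5 and 40.3 in day 10 spheroids, 44.6 and 38.0 in day 20 spheroids and 15 and 13.1 in monolayers, again with no overlap between BT474 spheroids and monolayers. The log2 fold change was 1.64 ± 0.13 on day 10 (adjusted p = 2.66e-05) and 1.56 ± 0.13 on day 20 (adjusted p = 2.87e-05). Neither gene was called in HCC1806 spheroids, where COL7A1 was lower in monolayer replicate 1 than in the other 5 libraries.

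Sequences upstream of both genes, from RefSeq windows (build GRCh38.p14), are shown because these members rose together in BT474. They are printed along the gene's own strand, minus in both cases, with capitals for a GC box (GGGCGG or CCGCCC) or a TATA box (TATAAA or TTTATA). The stretch of COL17A1, chr10:104085958-104086130, ends at the gene's start in the count table, which lies upstream of the RefSeq start, so the bases between the 2 starts are not shown. It holds 1 TATA box and no GC box.
COL17A1: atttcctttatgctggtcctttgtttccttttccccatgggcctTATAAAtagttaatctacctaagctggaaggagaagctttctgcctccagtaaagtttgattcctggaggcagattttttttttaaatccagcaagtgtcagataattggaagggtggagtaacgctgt
The stretch of COL7A1, chr3:48595330-48595579, ends at the RefSeq start and holds 3 GC boxes and 1 TATA box read on the opposite strand.
COL7A1: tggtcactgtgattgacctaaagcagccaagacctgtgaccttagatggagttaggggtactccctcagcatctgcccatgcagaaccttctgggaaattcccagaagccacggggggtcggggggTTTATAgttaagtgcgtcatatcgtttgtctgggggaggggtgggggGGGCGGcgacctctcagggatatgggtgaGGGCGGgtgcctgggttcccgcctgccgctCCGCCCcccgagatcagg
Over RefSeq windows reaching 250 bases before and 50 after a start, 32 of the 44 collagens had an entry, with 44 windows between them. GGGCGG on either strand was in 24 of these windows (54.5%), against 45.0% of all 35116 windows, and TATAAA in 8 (18.2%), against 11.5%. CCAAT was in 14 (31.8%), against 34.6%, and the AP-1 site TGAGTCA in 0, against 4.95%. A match is a run of letters only.

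Several partners of these 2 collagens were called in BT474 as well. Of 8 hemidesmosome and anchoring genes, 3 were higher and 1 lower in BT474 day 10 spheroids, and 3 higher and 2 lower on day 20. Of all genes, 8.02% were higher and 6.57% lower on day 10, and 8.95% and 8.65% on day 20. The list had median log2 fold changes of 0.14 and -0.05. Among the higher genes were LAMA3 and LAMB3, which encode laminin chains of epithelial basement membranes. LAMA3 averaged 5.64 ± 1.01 CPM in day 10 spheroids, 5.29 ± 0.837 CPM in day 20 spheroids and 1.06 ± 0.0273 CPM in monolayers (SD, n = 2 each). Its log2 fold change was 2.40 ± 0.24 on day 10 (adjusted p = 0.00012) and 2.31 ± 0.25 on day 20 (adjusted p = 0.000142). LAMB3 rose by 0.95 ± 0.22 and 0.91 ± 0.22. DST, a cytoskeletal linker with a hemidesmosomal isoform, fell by 0.66 and 0.87. ITGB4, the integrin beta chain of hemidesmosomes, fell by 0.42 on day 20. The calls of LAMA3 held on both days with any single library left out, while LAMB3 was lost without either day 10 library on day 10 and without day 20 replicate 1 on day 20. In the fit of all 12 libraries neither was called on either day. In HCC1806, 0 of the 8 were called against monolayers on either day, with medians of -0.28 and -0.22. On day 20 against day 10, ITGB4 was called lower and ITGA6 higher there, against 3.6% of all genes lower and 3.2% higher. Over the alternatives their log2 fold changes were -0.45 to -0.24 and 0.26 to 0.35. Both were lost without either day 10 library.

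The 6 type IV chains build basement membrane networks in 3 pairs, each pair encoded head to head. COL4A1 and COL4A2 make the network found in nearly all basement membranes, COL4A3 and COL4A4 join COL4A5 in the network of kidney and lung, and COL4A6 joins COL4A5 in epithelial basement membranes. COL4A3 and COL4A4 were higher in HCC1806 spheroids than in monolayers, and higher on day 20 than on day 10. As raw counts, COL4A3 had 258 and 577 in CAL148 monolayers, and HCC1806 had 72 and 44 in day 10 spheroids, 257 and 208 in day 20 spheroids and 0 and 0 in monolayers. COL4A4 had 609 and 762 in CAL148, and HCC1806 had 284 and 248 in day 10 spheroids, 586 and 559 in day 20 spheroids and 8 and 20 in monolayers. Spheroids and monolayers of HCC1806 do not overlap for either gene, and CAL148 expressed the pair too. Summed over the group, COL4A3 was at least 29.6-fold higher in day 10 spheroids (116 against 0 counts, adjusted p = 0.00766) and at least 120.3-fold higher in day 20 spheroids (465 against 0 counts, adjusted p = 0.00271), taking 3 counts over the 2 monolayer libraries as the floor. COL4A4 had log2 fold changes of 3.90 ± 0.45 (adjusted p = 0.0031) and 5.03 ± 0.46 (adjusted p = 0.0012). On day 20 against day 10, COL4A3 rose by 2.05 ± 0.41 (adjusted p = 0.00796) and COL4A4 by 1.14 ± 0.23 (adjusted p = 0.00852). In normalised CPM, COL4A4 had 6.63 and 6.49 on day 10, 15.3 and 13.4 on day 20 and 0.316 and 0.544 in monolayers.

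In CAL148 the counts correspond to 6.94 and 13.3 CPM of COL4A3 and 16.4 and 17.5 CPM of COL4A4. ZR-75-30 had 4 and 0 counts of COL4A3 and 0 and 2 of COL4A4. BT474 was low throughout, and neither gene was called in its spheroids. For COL4A3 it had 22 and 29 in day 10 spheroids, 19 and 6 in day 20 spheroids and 10 and 21 in monolayers, as counts. For COL4A4 it had 19 and 37 in day 10 spheroids, 10 and 18 in day 20 spheroids and 14 and 24 in monolayers. The line difference, HCC1806 minus BT474, was called for 2 of 36 collagens on day 10 and on day 20, against 1.35% and 2.77% of all genes, and both were COL4A3 and COL4A4. For COL4A4 it was 3.77 (adjusted p = 0.0308) on day 10 and 5.31 (adjusted p = 0.0091) on day 20. Both day 10 calls were lost when any single library other than an HCC1806 monolayer was left out. On day 20 the call of COL4A4 was lost without any single day 20 library of either line, and that of COL4A3 also without any day 10 library and without BT474 monolayer replicate 2. With HCC1806 monolayer replicate 1 or 2 left out, more collagens were called on both days, but the share of all genes in those fits is not given here. The summed fibroblast markers moved the same way as COL4A3 and COL4A4 in HCC1806 day 20 spheroids. They were at 31.3 and 36.3 CPM there, against 21.6 and 14.8 CPM in monolayers. The markers reaching 1 CPM numbered 3 and 3 there, against 4 and 5 in monolayers. The sum was 12.9 and 15.4 CPM in CAL148, which expressed the pair, and 69.6 and 290.6 CPM in ZR-75-30, which had few counts of it. The part of these markers was not tested. The later rises were lost for COL4A3 without day 10 replicate 2 or day 20 replicate 1, and for COL4A4 without either day 10 library or day 20 replicate 1.

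In the count table, the start sites of COL4A3 (ENSG00000169031, chr2:227164565-227314792, plus strand) and COL4A4 (ENSG00000081052, chr2:227002711-227164453, minus strand) lie 111 bases apart. The stretch between them, chr2:227164454-227164564 on GRCh38.p14, is shown because it lies upstream of both chains that moved in HCC1806. It is printed on the plus strand, so that COL4A3 as placed in the count table starts after its last base, with its 1 GC box in capitals. The RefSeq starts of both genes lie further apart, so the bases between these and the count table starts are not shown.
COL4A3 and COL4A4: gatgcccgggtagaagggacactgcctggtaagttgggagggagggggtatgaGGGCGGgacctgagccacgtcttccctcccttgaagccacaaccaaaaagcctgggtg
COL4A5 and COL4A6 on chromosome X are 346 bases apart, and COL4A1 and COL4A2 overlap by 1422 bases on chromosome 13 in the GENCODE 29 annotation.

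The other type IV chains were abundant in HCC1806 and differed between its monolayer replicates. COL4A1 had 97.2 and 88.8 in day 10 spheroids, 77.9 and 63.1 in day 20 spheroids and 18.2 and 213 in monolayers in HCC1806, as CPM. COL4A2 had 162 and 149.8 in day 10 spheroids, 120.4 and 89.0 in day 20 spheroids and 43.6 and 345 in monolayers there. COL4A5 had 103 and 103 in day 10 spheroids, 87.6 and 84.1 in day 20 spheroids and 13.7 and 63.3 in monolayers. COL4A6 had 38.5 and 36.7 in day 10 spheroids, 31.6 and 24.7 in day 20 spheroids and 3.91 and 59.5 in monolayers. For all 4, monolayer replicate 1 was the lowest HCC1806 library, and for COL4A1, COL4A2 and COL4A6 replicate 2 was the highest. COL4A5 was above both monolayers in every spheroid library. Its log2 fold change without monolayer replicate 1 or 2 was 0.62 or 2.93 on day 10 and 0.35 or 2.66 on day 20. With both monolayer libraries in the fit, none of the 4 was called against monolayers on either day. COL4A2 fell by 0.57 ± 0.14 on day 20 against day 10 (adjusted p = 0.0242), a call lost without either day 10 library or day 20 replicate 2. The day 20 change of COL4A2 differed between the lines with a value of -1.39 (adjusted p = 0.00582), with 3.25 and 2.68 CPM on day 10, 4.54 and 5.78 on day 20 and 4.40 and 3.94 in monolayers of BT474. This line difference was called for 2 of 36 collagens, against 2.67% of all genes, the other being COL8A2. Without either BT474 monolayer library it was called for 9.

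Outside HCC1806 the chains were uneven. COL4A1 had 0 counts in both CAL148 and both ZR-75-30 libraries, and BT474 had 14 and 45 in day 10 spheroids, 23 and 36 in day 20 spheroids and 30 and 10 in monolayers. COL4A2 had 6 and 8 counts in CAL148 and 75 and 80 in ZR-75-30. COL4A5 had 42.4 and 18.7 CPM in CAL148 and 0.501 and 0.390 in ZR-75-30, and BT474 had 3.18 and 2.05 in day 10 spheroids, 3.15 and 3.56 in day 20 spheroids and 1.93 and 1.84 in monolayers, as CPM. CAL148 thus held the COL4A5 transcript with few counts of COL4A6, 12 and 12, and the FPKM ratio of COL4A5 to COL4A6 was 102.7 and 52.9 there, against 2.09 to 2.67 in HCC1806 spheroids. ZR-75-30 had 0 counts of COL4A6. In BT474, COL4A6 had 8 and 10 in day 10 spheroids, 20 and 10 in day 20 spheroids and 0 and 0 in monolayers, with no overlap. Summed over each group it was at least 4.51-fold higher on day 10 (18 against 0 counts, adjusted p = 0.0434) and at least 11.2-fold higher on day 20 (30 against 0 counts, adjusted p = 0.0106). The first call was lost without any single library and the second without day 20 replicate 1, where the bound was 7.37-fold.

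**Figure D4:**
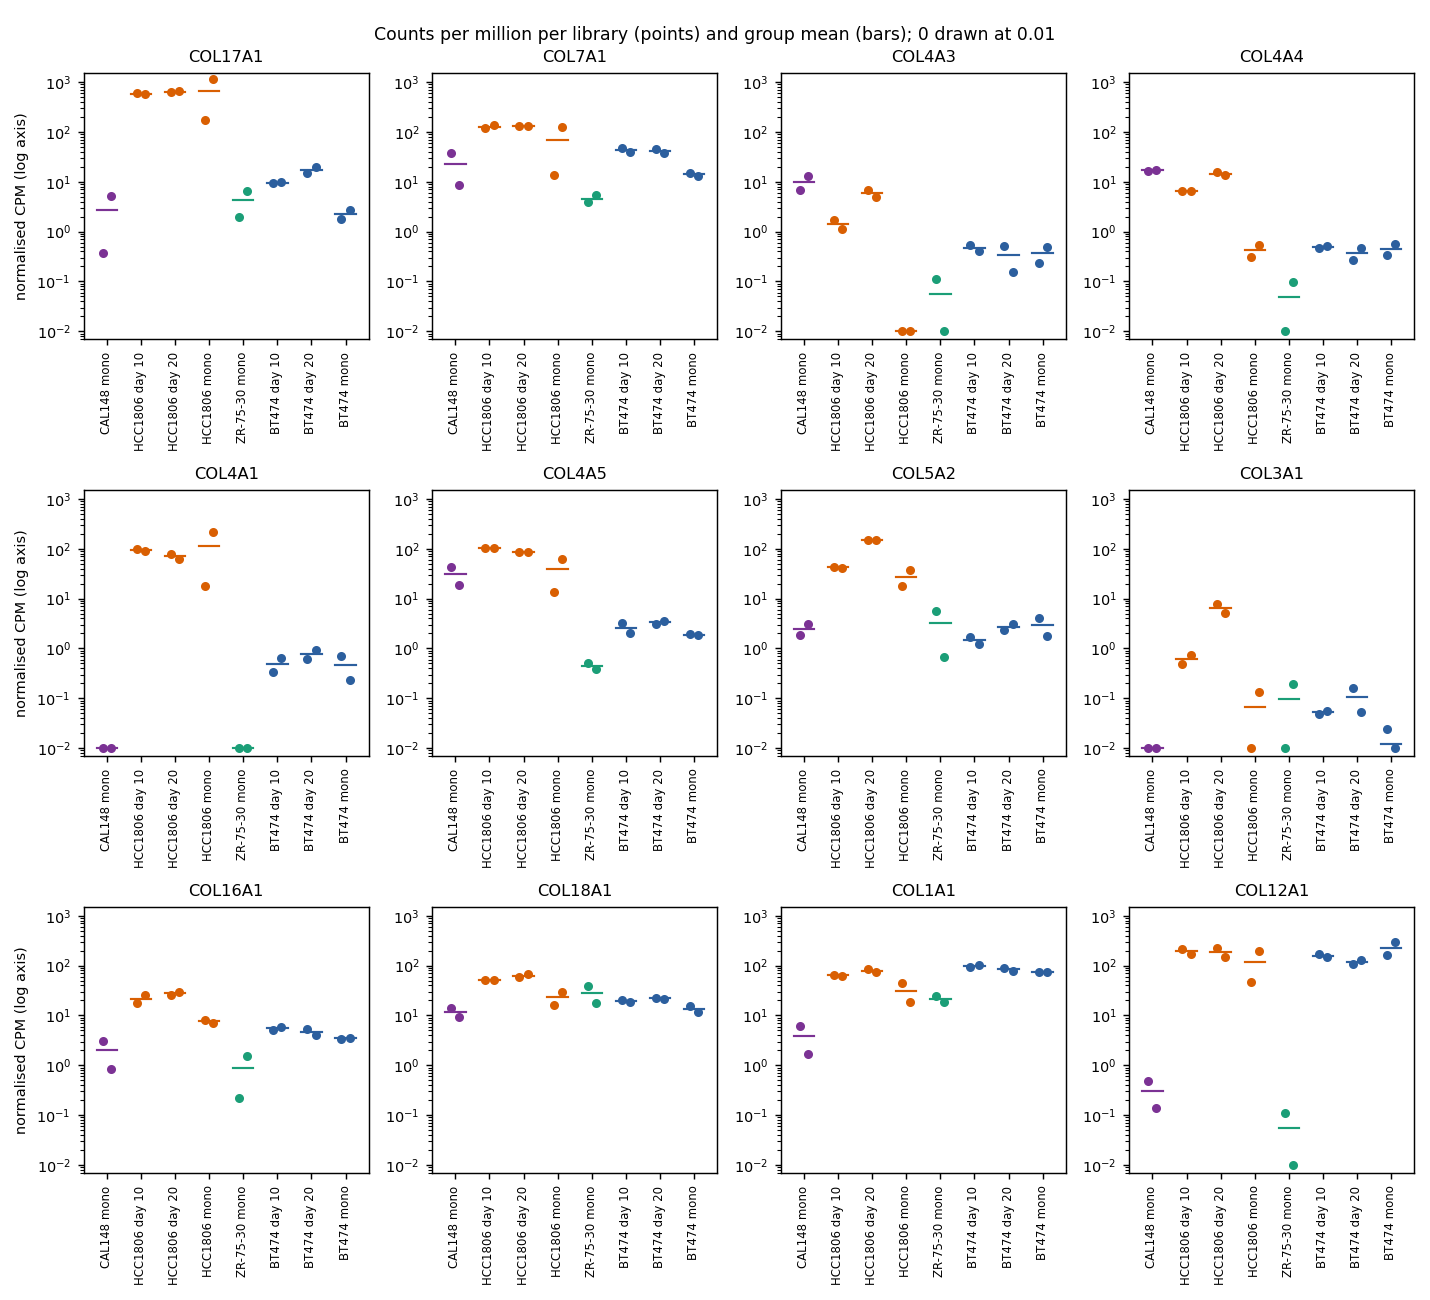
Normalised CPM per library (points) and group mean (horizontal bars) on a log axis for 12 collagens in the 8 groups; 0 is drawn at 0.01. COL17A1 and COL7A1 are higher in the 4 BT474 spheroid libraries than in the 2 monolayers, COL4A3 and COL4A4 are high in CAL148 and in HCC1806 spheroids, and COL5A2 stands at 151 and 149.9 CPM in HCC1806 day 20 spheroids.

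Several fibril-forming collagens, the class that makes the bulk of stromal matrix, were higher in HCC1806 day 20 spheroids. On day 20, 5 of 10 tested fibrillar genes were higher than in monolayers and 0 lower, against 6.24% and 4.85% of all genes, while on day 10 the count was 0 and 0, against 5.14% and 3.58%. Against day 10, 3 were higher and 0 lower, part of 5 higher and 1 lower among all 36 collagens, against 3.2% and 3.6% of all 20606 genes. The median over collagens was 0.19 there, against 0 over all genes. The summed FPKM of the class was 27.3 and 26.7 in day 10 spheroids, 49.9 and 46.7 in day 20 spheroids, and 15.8 and 11.5 in monolayers. All 3 later rises, COL3A1, COL5A2 and COL27A1, and the other calls of day 20 against day 10 come from the 10 libraries without the HCC1806 monolayers. With those 2 monolayer libraries in the fit, 0 were called, and without either day 10 library 3 of 36 were called. COL3A1 and COL5A2 held with any single library left out, and COL27A1 was lost without day 10 replicate 1 or day 20 replicate 2. The summed fibroblast markers were at 27.4 and 27.4 CPM on day 10, 31.3 and 36.3 CPM on day 20, and 21.6 and 14.8 CPM in monolayers. Those reaching 1 CPM numbered 5 and 4 on day 10, 3 and 3 on day 20, and 4 and 5 in monolayers. The markers at 0 in monolayers were PDGFRA, FAP, DCN and POSTN in replicate 1 and PDGFRA in replicate 2. On day 10 they were VIM and POSTN in replicate 1 and POSTN in replicate 2. All were read in both day 20 libraries. The part of these markers was not tested.

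COL5A2, which with COL5A1 makes collagen V, the nucleator of collagen I fibrils, had 44.0 and 42.0 in day 10 spheroids, 151 and 149.9 in day 20 spheroids and 18.2 and 36.9 in monolayers in HCC1806, as CPM. The 2 day 20 libraries were above the other 4. Its log2 fold change was 2.44 ± 0.44 on day 20 against monolayers (adjusted p = 0.0118) and 1.81 ± 0.24 against day 10 (adjusted p = 0.0024). COL5A1 had 132 and 123 in day 10 spheroids, 152 and 137 in day 20 spheroids and 73.0 and 23.7 in monolayers, and was not called. COL5A3, a rarer collagen V chain, had 24 and 39 in day 10 spheroids, 108 and 94 in day 20 spheroids and 2 and 6 in monolayers, as counts, with a log2 fold change of 4.31 ± 0.70 on day 20 (adjusted p = 0.019). The FPKM ratio of COL5A2 to COL5A1 was 0.501 and 0.515 on day 10 and 1.496 and 1.64 on day 20, but 0.375 and 2.34 in the 2 monolayer libraries. COL3A1, the collagen III chain of pliable tissue, lies 19149 bases from COL5A2 on chromosome 2. It had 21 and 28 in day 10 spheroids, 298 and 217 in day 20 spheroids and 0 and 5 in monolayers in HCC1806, as counts. Its log2 fold change on day 20 was 6.36 ± 0.97 against monolayers (adjusted p = 0.00699) and 3.42 ± 0.41 against day 10 (adjusted p = 0.000189). Even then its FPKM was 0.0565 and 0.0379 of that of COL5A2.

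COL27A1, a cartilage-type fibrillar chain, had 29.4 and 39.7 in day 10 spheroids, 58.6 and 67.4 in day 20 spheroids and 11.3 and 24.6 in monolayers in HCC1806, as CPM. It rose by 1.80 ± 0.36 on day 20 against monolayers (adjusted p = 0.0173) and by 0.88 ± 0.16 against day 10 (adjusted p = 0.00468). COL1A1, the main chain of collagen I, had 6.03 and 1.70 CPM in CAL148 and, in HCC1806, 64.9 and 63.2 in day 10 spheroids, 85.7 and 73.9 in day 20 spheroids and 44.5 and 18.5 in monolayers. Its log2 fold change on day 20 was 1.33 ± 0.34 (adjusted p = 0.0417), a call lost in 13 of 18 alternatives. ZR-75-30 had 24.5 and 18.4 CPM of COL1A1, and BT474 91.8 and 102 in day 10 spheroids, 89.2 and 78.7 in day 20 spheroids and 74.5 and 73.8 in monolayers. It was 0.38 ± 0.09 higher on day 10 (adjusted p = 0.0174), with no call without either day 10 library. COL1A2, the usual partner chain of COL1A1, had 9 counts at most in any library, while COL1A1 had 74 to 7234.

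Collagen V and III transcripts were few outside HCC1806. COL5A1 had 2 and 33 counts in CAL148, 0 in both ZR-75-30 libraries, and BT474 had 22 and 38 in day 10 spheroids, 24 and 33 in day 20 spheroids and 63 and 13 in monolayers. COL5A2 had 1.83 and 3.06 CPM in CAL148, 5.68 and 0.682 in ZR-75-30, and BT474 had 1.70 and 1.25 in day 10 spheroids, 2.38 and 3.03 in day 20 spheroids and 4.14 and 1.74 in monolayers. COL5A3 had 0 counts in all 10 libraries outside HCC1806. COL3A1 had 0 counts in CAL148, 0 and 4 in ZR-75-30, and BT474 had 2 and 4 in day 10 spheroids, 6 and 2 in day 20 spheroids and 1 and 0 in monolayers. COL27A1 was present in every line, with 8.77 and 1.22 CPM in CAL148, 29.7 and 18.4 in ZR-75-30, and BT474 had 5.19 and 4.23 in day 10 spheroids, 5.29 and 4.0 in day 20 spheroids and 3.18 and 3.68 in monolayers.

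The cartilage fibrillar chains COL2A1, COL11A1 and COL11A2 and the minor fibrillar chain COL24A1 stayed low. COL2A1 had 1 and 0 counts in CAL148, and HCC1806 had 0 and 4 in day 10 spheroids, 2 and 11 in day 20 spheroids and 8 and 2 in monolayers. It had 74 and 72 counts in ZR-75-30, and BT474 had 57 and 74 in day 10 spheroids, 63 and 67 in day 20 spheroids and 105 and 109 in monolayers. In BT474 COL2A1 fell on day 10 by 1.08 ± 0.28 (adjusted p = 0.0261). COL11A2 counts were 195 and 46 in CAL148, and HCC1806 had 58 and 49 in day 10 spheroids, 96 and 107 in day 20 spheroids and 57 and 65 in monolayers. COL11A2 had 6 and 3 counts in ZR-75-30, and BT474 had 79 and 121 in day 10 spheroids, 49 and 56 in day 20 spheroids and 22 and 43 in monolayers. In BT474 COL11A2 had a log2 fold change of 1.22 ± 0.36 on day 10 (adjusted p = 0.0448). Both calls were lost without either day 10 library. COL11A1 was read in HCC1806 alone, with 63 and 62 in day 10 spheroids, 42 and 36 in day 20 spheroids and 57 and 66 in monolayers, and had 0 counts in the other 10 libraries. COL24A1 had 0 and 4 counts in CAL148, and HCC1806 had 68 and 44 in day 10 spheroids, 53 and 26 in day 20 spheroids and 2 and 12 in monolayers. ZR-75-30 had 77 and 24 counts of COL24A1, and BT474 14 and 9 in day 10 spheroids, 17 and 5 in day 20 spheroids and 2 and 8 in monolayers.

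Collagen VI, a beaded filament around cells, is built from COL6A1, COL6A2 and usually COL6A3. CAL148 had 3.71 and 2.46 CPM of COL6A1, 38.8 and 32.1 CPM of COL6A2 and 0 counts of COL6A3. In HCC1806, COL6A1 had 154 and 149 in day 10 spheroids, 129.9 and 128 in day 20 spheroids and 95.3 and 64.0 in monolayers, as CPM. COL6A2 had 138 and 140.1 in day 10 spheroids, 127 and 122 in day 20 spheroids and 174 and 39.7 in monolayers there. COL6A1 was called higher on day 10 (log2 fold change 0.92 ± 0.21, adjusted p = 0.029), a call lost in 12 of 18 alternatives. COL6A2 was highest in monolayer replicate 1 and lowest in replicate 2. ZR-75-30 had 0 counts of COL6A1 and COL6A2 in both libraries. For COL6A1, as CPM, BT474 had 17.1 and 19.4 in day 10 spheroids, 18.6 and 16 in day 20 spheroids and 19.5 and 18.0 in monolayers. For COL6A2 it had 9.10 and 8.45 in day 10 spheroids, 8.57 and 8.37 in day 20 spheroids and 7.72 and 7.02 in monolayers. Neither was called there. COL6A3 was nearly missing from HCC1806, with 3 and 4 in day 10 spheroids, 1 and 1 in day 20 spheroids and 2 and 10 in monolayers, as counts. It had 16 and 2 counts in ZR-75-30. In BT474 it had 133 and 304 in day 10 spheroids, 46 and 100 in day 20 spheroids and 50 and 27 in monolayers, and was 2.04 ± 0.40 higher on day 10 (adjusted p = 0.00642), a call lost without day 10 replicate 2. The FPKM ratio of COL6A2 to COL6A1 was 10.4 and 12.9 in CAL148, 0.888 to 0.969 in HCC1806 spheroids and 0.386 to 0.528 in BT474.

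**Figure D5:**
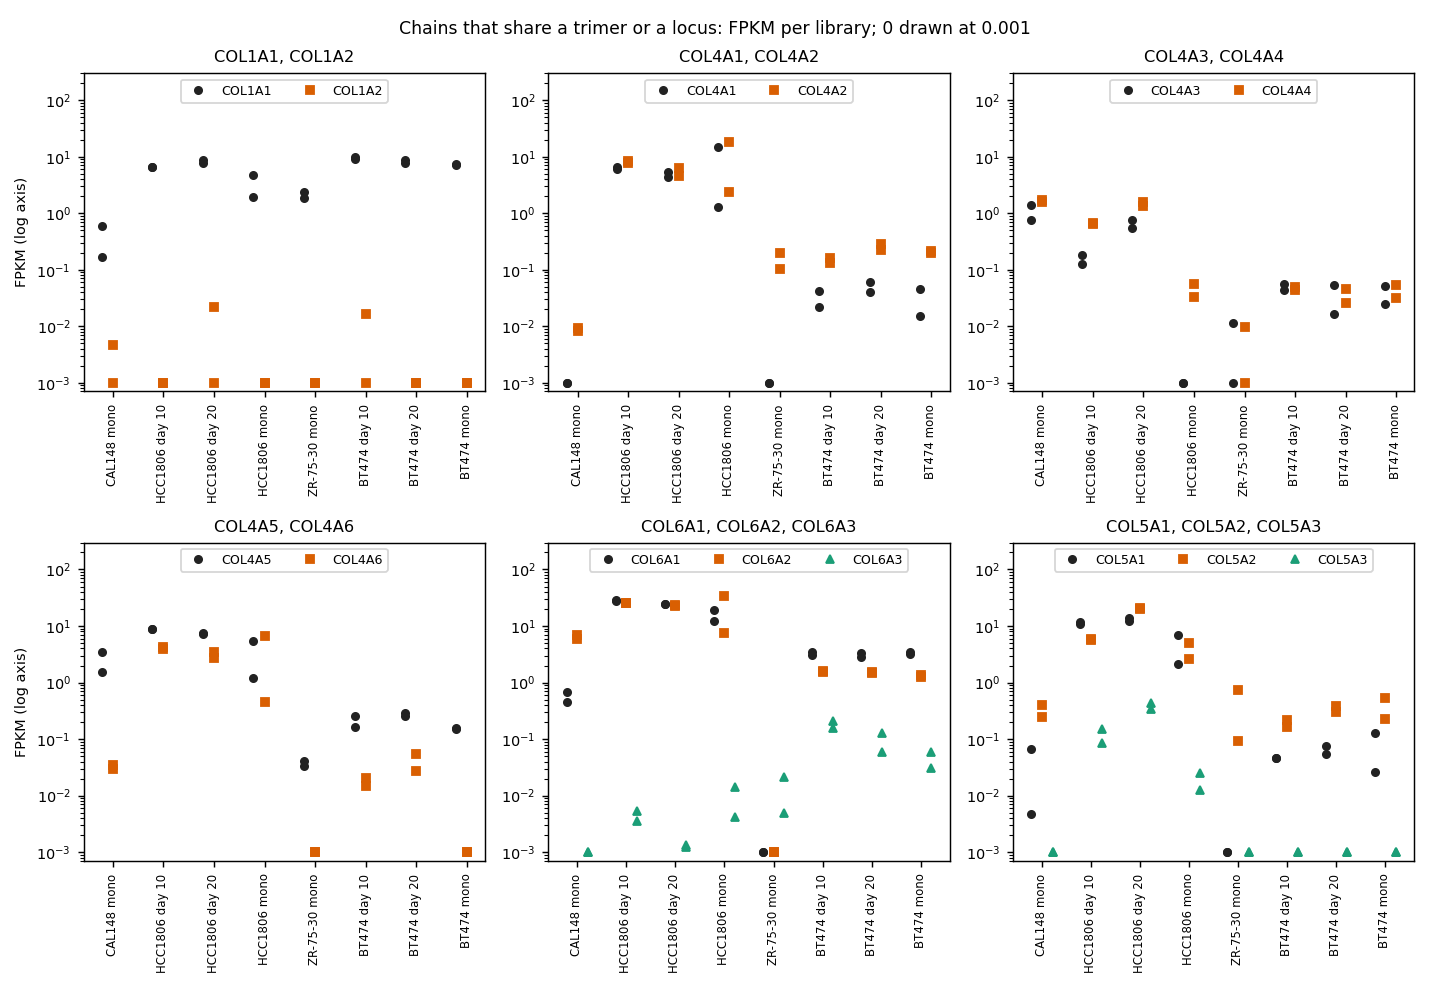
FPKM per library on a log axis for collagen chains that share a trimer or a locus, in the 8 groups; 0 is drawn at 0.001. COL1A2 is at or near 0 in every library, COL6A3 lies below COL6A1 and COL6A2 in every HCC1806 and BT474 library, and COL5A2 exceeds COL5A1 in HCC1806 day 20 but not day 10 spheroids.

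Among the fibril-associated collagens, which sit on fibril surfaces, COL12A1 was abundant in both spheroid lines. CAL148 had 18 and 6 counts of it. HCC1806 had 215 and 173 in day 10 spheroids, 226 and 149.9 in day 20 spheroids and 47.5 and 193 in monolayers, as CPM. ZR-75-30 had 4 and 0 counts, and BT474, as CPM, 167 and 147 in day 10 spheroids, 108 and 128 in day 20 spheroids and 164 and 295 in monolayers. COL12A1 was not called in spheroids against monolayers of either line. COL16A1, a connective tissue collagen, was higher in HCC1806 spheroids with no overlap between groups. It had 3.15 and 0.828 CPM in CAL148. In HCC1806 it had 17.6 and 26.1 in day 10 spheroids, 26.3 and 29.9 in day 20 spheroids and 8.29 and 7.15 in monolayers, with log2 fold changes of 1.49 ± 0.26 on day 10 (adjusted p = 0.0124) and 1.86 ± 0.27 on day 20 (adjusted p = 0.0053). It had 0.223 and 1.56 CPM in ZR-75-30, and BT474 had 5.09 and 5.88 in day 10 spheroids, 5.26 and 4.11 in day 20 spheroids and 3.42 and 3.61 in monolayers. In BT474 COL16A1 was not called.

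Of the collagen IX chains, which coat cartilage fibrils, COL9A2 had 1.59 and 3.10 CPM in CAL148, and HCC1806 had 14.7 and 20.0 in day 10 spheroids, 12.3 and 13.3 in day 20 spheroids and 20.4 and 8.75 in monolayers. It had 28.9 and 32.7 CPM in ZR-75-30, and BT474 had 16.3 and 16.3 in day 10 spheroids, 22.7 and 20.0 in day 20 spheroids and 32.0 and 23.3 in monolayers. In BT474 COL9A2 fell by 0.76 ± 0.15 on day 10 (adjusted p = 0.00642). That call was lost without either day 10 library. COL9A3 had 0 and 10 counts in CAL148, and HCC1806 had, as CPM, 10.3 and 13.1 in day 10 spheroids, 16.5 and 14.1 in day 20 spheroids and 20.6 and 5.49 in monolayers. It had 6 and 6 counts in ZR-75-30, and BT474 had, as CPM, 1.70 and 2.25 in day 10 spheroids, 2.08 and 2.25 in day 20 spheroids and 2.47 and 1.74 in monolayers. The third chain, COL9A1, had counts only in HCC1806 day 20 spheroids, 7 and 4.

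The remaining fibril-associated members were low. COL14A1 had 10 and 0 counts in CAL148, and HCC1806 had 6 and 4 in day 10 spheroids, 3 and 9 in day 20 spheroids and 0 and 0 in monolayers. It had 30 and 19 counts in ZR-75-30, and BT474 had 157 and 304 in day 10 spheroids, 115 and 168 in day 20 spheroids and 145 and 105 in monolayers. The HCC1806 calls on day 10 (10 against 0 counts, at least 2.55-fold higher, adjusted p = 0.0391) and day 20 (12 against 0, at least 3.11-fold, adjusted p = 0.0261) rest on 10 and 12 counts, of which 3 were left on day 20 without replicate 2. The first was lost without any single library other than an HCC1806 day 20 one, and the second without any single spheroid library of either line. COL20A1 had 5 and 0 counts in CAL148, and 0 in HCC1806 and ZR-75-30, while BT474 had 53 and 73 in day 10 spheroids, 23 and 20 in day 20 spheroids and 45 and 26 in monolayers. COL21A1 had 12 and 2 counts in CAL148, and HCC1806 had 2 and 0 in day 10 spheroids, 0 and 2 in day 20 spheroids and 17 and 2 in monolayers. It had 1 and 0 counts in ZR-75-30, and BT474 had 6 and 8 in day 10 spheroids, 18 and 19 in day 20 spheroids and 0 and 1 in monolayers. In BT474 COL21A1 was higher on day 20 with 37 against 1 counts, a ratio of 41.3 (95% counting interval 6.97 to 1675, adjusted p = 0.00835). That call was lost without either day 20 library. COL22A1 reached 12 counts and COL19A1 8, both in HCC1806 alone.

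The multiplexins carry endostatin-like C-terminal fragments. COL18A1 had 14 and 9.31 CPM in CAL148. In HCC1806 it had 52.3 and 52.3 in day 10 spheroids, 59.0 and 66.4 in day 20 spheroids and 16.6 and 29.5 in monolayers. ZR-75-30 had 39.3 and 17.9 CPM, and BT474 20.2 and 18.8 in day 10 spheroids, 22.9 and 21.2 in day 20 spheroids and 15.4 and 11.7 in monolayers. It was higher in HCC1806 spheroids by 1.17 ± 0.27 on day 10 (adjusted p = 0.0323) and 1.44 ± 0.27 on day 20 (adjusted p = 0.0144). In BT474 the log2 fold changes were 0.52 ± 0.14 (adjusted p = 0.033) and 0.70 ± 0.14 (adjusted p = 0.00725). The day 10 call in HCC1806 was lost in 12 of 18 alternatives and that in BT474 without any single spheroid library, and the BT474 day 20 call without day 20 replicate 1. The gene shares 16.4% of its exon bases with SLC19A1 on the opposite strand, and since the strand setting of the counting is not given in the sources used here, its level is uncertain. COL15A1 had 6 and 6 counts in CAL148, 0 in HCC1806, 21 and 4 in ZR-75-30 and, in BT474, 29 and 41 in day 10 spheroids, 11 and 23 in day 20 spheroids and 6 and 4 in monolayers. Its log2 fold change in BT474 was 2.40 ± 0.65 on day 10 (adjusted p = 0.0307). The call was lost without either day 10 library or BT474 monolayer replicate 2. COL15A1, COL5A3, COL4A3 and COL16A1 overlap antisense genes over 1.26% to 4.0% of their exon bases.

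The network collagen COL8A2, found in the cornea, had 0 counts in both CAL148 libraries, and HCC1806 had 674 and 570 in day 10 spheroids, 785 and 821 in day 20 spheroids and 685 and 385 in monolayers, not called against monolayers. It had 2 and 2 counts in ZR-75-30, and BT474 had 0 and 0 in day 10 spheroids, 4 and 4 in day 20 spheroids and 0 and 0 in monolayers. Its difference between lines in day 20 against day 10 (-4.84, adjusted p = 0.0485) rests on 8 BT474 counts. COL13A1, a transmembrane collagen of the neuromuscular junction, had 150 and 84 counts in CAL148, and HCC1806 had 4 and 3 in day 10 spheroids, 1 and 7 in day 20 spheroids and 0 and 18 in monolayers. ZR-75-30 had 2 and 1 counts of COL13A1 and BT474 21 and 36 in day 10 spheroids, 15 and 24 in day 20 spheroids and 6 and 0 in monolayers. COL26A1 had 57 and 44 counts in CAL148, and HCC1806 had 1 and 4 in day 10 spheroids, 15 and 6 in day 20 spheroids and 11 and 6 in monolayers. It had 18 and 11 in ZR-75-30, and BT474 had 51 and 109 in day 10 spheroids, 73 and 70 in day 20 spheroids and 52 and 54 in monolayers. COL28A1 had 46 and 9 counts in CAL148, and HCC1806 had 6 and 7 in day 10 spheroids, 8 and 6 in day 20 spheroids and 0 and 5 in monolayers. COL28A1 counts were 84 and 26 in ZR-75-30 and, in BT474, 28 and 31 in day 10 spheroids, 54 and 31 in day 20 spheroids and 49 and 44 in monolayers. None of these 3 was called in spheroids against monolayers. The remaining members reached 27 counts (COL25A1, in CAL148), 18 (COL23A1, in BT474), 14 (COL10A1), 10 (COL6A6), 4 (COL8A1) and 2 (COL6A5) at most in any library. With COL1A2, COL9A1, COL19A1 and COL22A1, the 4 of these from COL10A1 on were below the filter on low counts in the fits with no library left out, which left 36 of 44 tested. COL10A1, COL1A2 and COL22A1 passed it in some fits with a library left out, where COL22A1 was called higher in 7 fits of HCC1806 against BT474 day 20 spheroids and the others in none.

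No collagen was called between day 20 and day 10 spheroids of BT474. There edgeR called 0 of 32, with a median log2 fold change of 0.07, against 0.155% of 17447 genes, while 9 collagens had an unadjusted p under 0.05 and DESeq2 called 1. Leaving out either BT474 monolayer library gave 6 calls, 4 higher and 2 lower.

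The machinery of collagen was followed through lists drawn up with earlier results of these data known. The counts of each list stand against the shares of all genes, which were 5.14% higher and 3.58% lower on day 10 and 6.24% and 4.85% on day 20 in HCC1806. In BT474 these shares were 8.02% and 6.57% on day 10 and 8.95% and 8.65% on day 20. Few folding and hydroxylation enzymes were called. Of 19, 0 were called in HCC1806 day 10 spheroids and 1 lower on day 20, PLOD3, a lysyl hydroxylase, which fell by 0.89 (adjusted p = 0.0359). In BT474, 1 was higher and 2 lower of 17 on day 10, and 0 higher and 2 lower on day 20. The median log2 fold changes over the list were 0.04 and -0.09 in HCC1806 and 0.08 and -0.12 in BT474, on days 10 and 20. P3H2, a prolyl hydroxylase of basement membrane collagen, fell by 3.71 on day 10 (adjusted p = 0.00118) and 2.30 on day 20 (adjusted p = 0.00964). PPIB, a prolyl isomerase, was 0.34 higher on day 10, P3H4 fell by 0.60 on day 10 and P4HA2, a prolyl hydroxylase subunit, by 0.36 on day 20. Against day 10, HCC1806 day 20 spheroids had 1 of 19 lower, P4HB, by 0.51.

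LOXL4, one of the lysyl oxidases that crosslink fibrils, rose in spheroids of both lines. Of 18 secretion, trimming and crosslinking genes, 2 were higher in HCC1806 on day 10, 4 on day 20, and 0 lower on either day, against 5.14% and 6.24% of all genes called higher, with medians of 0.56 and 0.44. LOXL4 had 2.82 and 2.83 CPM on day 10, 13.8 and 14.4 on day 20 and 0.947 and 0.217 in HCC1806 monolayers. Its log2 fold change was 2.34 ± 0.49 (adjusted p = 0.0231) and 4.66 ± 0.50 (adjusted p = 0.00207). LOXL2 had 1.12 and 1.78 CPM on day 10, 8.71 and 4.33 on day 20 and 0.552 and 1.25 in monolayers, and rose by 2.83 ± 0.73 on day 20 (adjusted p = 0.0423). TLL2, a tolloid-like proteinase, rose by 2.21 ± 0.45 on day 10 and 2.63 ± 0.45 on day 20. Day 20 against day 10 had 3 of 18 higher, LOXL4 by 2.33 ± 0.15, LOXL2 by 2.18 ± 0.50 and LOX by 1.71 ± 0.27. In BT474, LOXL4 had 205 and 242 CPM on day 10, 181 and 216 on day 20 and 17.9 and 22.3 in monolayers, with log2 fold changes of 3.47 ± 0.14 (adjusted p = 1.66e-07) and 3.30 ± 0.14 (adjusted p = 3.26e-07). The list there had 2 higher and 2 lower of 14 on day 10, and 3 and 2 on day 20, with medians of 0.12 and -0.03. PCOLCE, an enhancer of procollagen trimming, changed by 1.73 ± 0.37 and 2.21 ± 0.37, and SEC23A, a coat protein of secretory vesicles, by -0.55 ± 0.08 and -0.61 ± 0.08.

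Receptors and basement membrane partners had few calls, all higher in HCC1806 spheroids and mostly lower in BT474 spheroids than in monolayers. Of 9 collagen receptors, 1 was higher on day 10 and 2 on day 20 in HCC1806, and 0 lower, against 5.14% and 6.24% of all genes called higher, with medians of 0.72 and 0.83. DDR1, a collagen-binding kinase, rose by 1.00 ± 0.16 (adjusted p = 0.00961) and 0.83 ± 0.16 (adjusted p = 0.016), and ITGA1, an integrin chain, by 2.44 ± 0.64 on day 20. MRC2, an endocytic collagen receptor, was the 1 of 9 higher on day 20 against day 10, by 1.58 ± 0.32. In BT474, 0 of 7 were higher and 2 lower on both days, ITGA2 with log2 fold changes of -0.75 and -0.99 and ITGB1 with -0.46 and -0.39, and the medians were -0.39 and -0.39. Of 10 basement membrane partners, HCC1806 had 2 higher on day 10 and 1 on day 20, LAMB2, a laminin chain, by 1.01 ± 0.14 and 1.10 ± 0.14, and AGRN, a proteoglycan, by 0.90 ± 0.22 on day 10. The medians were 0.80 and 0.42. On day 20 against day 10, AGRN was called lower and FRAS1 higher in HCC1806, against 3.6% of all genes lower and 3.2% higher. Over the alternatives their log2 fold changes were -0.54 to -0.42 and 1.12 to 1.98. AGRN was lost without day 10 replicate 1 and FRAS1 without day 20 replicate 1. BT474 had 1 higher and 3 lower of 8 on day 10 and 0 and 4 on day 20, with medians of -0.30 and -0.37, led by FREM2, at -2.75 ± 0.16 and -2.35 ± 0.16. LAMB1 changed by -0.95 ± 0.11 and -0.91 ± 0.11, and LAMB2 was 0.56 ± 0.08 higher on day 10. Whether receptors or partners differ between the lines was not tested as a list.

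Among genes of collagen cleavage, MMP13, a collagenase, was higher in HCC1806 spheroids and lower in BT474 spheroids than in monolayers. In HCC1806 it had 41.1 and 45.4 CPM on day 10, 142 and 121 on day 20 and 2.05 and 2.42 in monolayers. It was the 1 gene of 5 called on each day, higher by 4.26 ± 0.24 (adjusted p = 0.000216) and 5.87 ± 0.26 (adjusted p = 1e-04), and the medians of the 5 were 0.52 and 0.32. Day 20 against day 10 had 2 higher and 1 lower, with log2 fold changes of 3.20 ± 0.35 for MMP1, 1.61 ± 0.11 for MMP13 and -1.0 ± 0.23 for MMP2, a gelatinase. In BT474, MMP13 was the 1 of 3 called, with log2 fold changes of -1.95 on day 10 (adjusted p = 0.0382) and -2.65 on day 20 (adjusted p = 0.0138), at 0.170 and 0.253 CPM on day 10, 0.160 and 0.105 on day 20 and 0.879 and 0.801 in monolayers. The medians of the 3 were -0.33 and -0.61. The BT474 day 10 call was lost without any single library, and the day 20 call without either day 20 library. Over all these lists, 27 calls in HCC1806 and 37 in BT474 were made in spheroids against monolayers or day 20 against day 10, of which 9 and 16 held with any single library left out. In the fit of all 12 libraries 33 of the 37 BT474 calls were lost, with LOXL4 and MMP13 kept on both days, as were all 12 HCC1806 calls of day 20 against day 10. The 6 HCC1806 libraries alone lost 14 of its 15 calls against monolayers. Calls that held with any single library left out included LOXL4 in BT474 on both days and in HCC1806 on day 20 against monolayers and day 10. MMP13 in HCC1806 on both days and LAMB2 in HCC1806 on day 20 were others. Of the HCC1806 calls against monolayers, only MMP13 on day 20 was also kept in the 6 HCC1806 libraries alone. LOXL2, ITGA1 and PLOD3 in HCC1806 on day 20, and LOXL4 and AGRN there on day 10, were lost without any single spheroid library of HCC1806. Of 5 epithelial markers, 3 were lower in HCC1806 day 20 spheroids than in monolayers and 0 higher, and their part in the collagen changes was not tested.

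The 2 lines grown as spheroids differed in most collagens, as they did in most genes. HCC1806 day 10 spheroids had 21 collagens higher and 9 lower of 36 than BT474 day 10 spheroids, against 37.5% and 33.2% of all genes, and on day 20 the count was 22 and 10, against 37.7% and 33.6%. The median over collagens was 1.81 and 2.19, against 0.08 and 0.09 over all genes. All 6 type IV chains were higher in HCC1806 on both days. COL4A1 differed by 7.49 ± 0.28 and 6.5 ± 0.28, COL5A1 by 7.90 ± 0.39 and 7.59 ± 0.38, COL17A1 by 5.95 ± 0.15 and 5.24 ± 0.14, and COL6A2 by 3.99 ± 0.09 and 3.89 ± 0.10 on days 10 and 20. COL8A2 had 1244 against 0 counts on day 10, at least 575-fold higher. Lower in HCC1806 were COL6A3, with a log2 difference of -5.39 ± 0.57 on day 10, and COL14A1, with -5.00 ± 0.45 and -4.61 ± 0.44. COL20A1 and COL15A1 had 0 HCC1806 counts on both days, against 126 and 70 in BT474 day 10 spheroids, at least 30.3-fold and 16.8-fold lower.

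In monolayers, CAL148 had 2 collagens higher and 12 lower of 32 than HCC1806, against 7.8% and 12.4% of 19594 genes. The median over collagens was -2.03, against -0.10 over all genes. The 2 were COL4A3, with 835 against 0 counts, at least 214-fold higher, and COL4A4, with a log2 difference of 5.25 ± 0.97. Among the lower were COL4A1, with 0 against 8284 counts, at least 3586-fold, COL4A2, with a log2 difference of -10.13 ± 1.22, and COL17A1, with one of -7.91 ± 1.59. Of the 8284 counts, 7824 were in HCC1806 replicate 2, and without that library the values were at least 488-fold for COL4A1, -7.94 for COL4A2 and -5.95 for COL17A1. Without replicate 1 the bound for COL4A1 was 5720.0-fold. Against BT474, CAL148 had 2 higher and 7 lower, against 2.5% and 3.88% of genes, with medians of -0.42 over collagens and 0 over all genes, the 2 being COL4A4 by 5.25 ± 0.97 and COL4A5 by 4.04 ± 0.83. ZR-75-30 had 0 higher and 3 lower than BT474, against 3.66% and 4.38%, with medians of -1.66 over collagens and -0.06 over all genes. These lower genes were COL6A1, with 0 against 1584 counts, at least 353-fold, COL6A2, with 0 against 623, at least 139-fold, and COL12A1, with a log2 difference of -11.67 ± 1.35. HCC1806 had 14 higher and 1 lower than ZR-75-30, against 12.5% and 8.04%, the lower being COL2A1, with a log2 difference of -3.88 ± 1.08. The median was 3.31 over collagens and 0.19 over all genes. These comparisons share control libraries and a pooled spread. Leaving out CAL148 replicate 1 or 2 left 6 or 7 calls against HCC1806 and 0 against BT474. Leaving out ZR-75-30 replicate 1 or 2 left 5 or 4 for HCC1806 against ZR-75-30. Without HCC1806 monolayer replicate 1 or 2, ZR-75-30 against BT474 had 8 or 6 calls and CAL148 against BT474 had 16 with either. CAL148 against BT474 had 1 call without either BT474 monolayer library, and 6 or 5 without ZR-75-30 replicate 1 or 2.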

How the data were processed

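Poly(A) libraries from RNeasy total RNA were sequenced as 150 bp paired reads on a NovaSeq X Plus, per the labels' protocols. Reads were processed with HISAT2 2.2.1, featureCounts 2.0.6 and GRCh38, per the submitters' processing notes. The authors deposited raw counts per gene, and FPKM that the values show to be those counts divided by gene length and a library size. This size was not the total of the counts. It was below the total in HCC1806 monolayer replicate 1 and ZR-75-30 replicate 2 and above it in both CAL148 libraries. In these libraries it was closer to the TMM-adjusted size, but in HCC1806 monolayer replicate 2 it was closer to the total. Low counts were mostly even, at 1.6 to 2.13 even values per odd value. Whether each mate was counted on its own was not tested. Counting intervals and floors cover counting error only and may be too narrow.

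Gene-wise tests used edgeR 4.0.16 (quasi-likelihood F test, robust, TMM scaling, genes with a count of at least 10 by group and 15 in total) in R 4.3.3, adjusted by Benjamini-Hochberg over all genes tested, after tests on simulated data. HCC1806 against monolayer and its differences from BT474 used 12 libraries, day 20 against day 10 in HCC1806 and the comparisons of spheroids between lines 10 (without the HCC1806 monolayers), BT474 6 and monolayers 8. Among alternatives were DESeq2 1.42.0, other scaling and filters, a replicate block and leaving out each library. Deviations of same-numbered libraries correlated at -0.165 to 0.125, and the main tests did not pair them. With 2 libraries a group, these values cannot exclude a small effect shared by same-numbered libraries.

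Members called in any spheroid comparison, or reaching a group mean of 5 CPM, were named with all values (34 genes). Other members were named with a highest count, and lists with up to 3 called genes of the largest change. One list gene that the rule would name is not reported here. Members and lists were chosen with earlier results of these data known. Proteins and a genome sequence were not used here. Promoter letters are from RefSeq, GRCh38.p14, and gene positions from the count table, all 44 of which matched GENCODE 29. A floor of 3 counts over a group of libraries stands in for 0 in a ratio.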

Additional observations from a re-analysis of the deposited data

Results flagged for a closer look

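In 6 cases a test of the difference itself gave HCC1806 and BT474 unlike changes. In day 10 spheroids against monolayers, the log2 fold change in HCC1806 minus that in BT474 was 3.768 for COL4A4 (adjusted p = 0.0308) and 8.525 for COL4A3 (adjusted p = 0.0454). In day 20 spheroids against monolayers it was 5.308 for COL4A4 (adjusted p = 0.0091) and 11.06 for COL4A3 (adjusted p = 0.0154). COL4A3 had 0 counts in both HCC1806 monolayers, so its fitted values depend on the prior count. COL4A4 had 8 and 20 counts there, against 14 and 24 in BT474 monolayers. In day 20 against day 10 spheroids it was -1.391 for COL4A2 (adjusted p = 0.00582), which had 4605 and 3718 counts on day 20 and 6952 and 5728 on day 10 in HCC1806, and 170 and 221 on day 20 and 134 and 191 on day 10 in BT474. It was -4.836 for COL8A2 (adjusted p = 0.0485), where BT474 had 4 and 4 counts on day 20 and 0 on day 10. That call was lost under DESeq2 and with any single spheroid library left out.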

How the results depend on the processing

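No called collagen or list gene reversed its direction under any alternative. In HCC1806 spheroids against monolayers, 12 collagens were called on day 10 with no count filter, 3 with a replicate block and 0 from the 6 HCC1806 libraries alone, where day 20 also gave 0. The line difference on day 10 had 7 calls with no filter, 0 with the block, 4 by DESeq2 and 0 from all 16 libraries. On day 20 it had 10 with no filter, 0 with the block and 7 by DESeq2. HCC1806 day 20 against day 10 had 10 calls with no filter and 0 in the 12-library fit. The line difference of day 20 against day 10 had 11 with no filter, 5 with the block, 8 by DESeq2 and 0 from 12 libraries. BT474 had 0 calls on either day in the 12-library fit. On day 20 it had 9 with no filter and 3 at a minimum count of 50, and day 20 against day 10 had 1 with no filter and 1 by DESeq2. ZR-75-30 against BT474 had 11 with no filter, 8 by DESeq2 and 13 from all 16 libraries, and CAL148 against BT474 had 16 under each of these. All 16 libraries gave 25 calls for CAL148 against HCC1806 and 23 for HCC1806 against ZR-75-30. The cause of these shifts was not tested, but fits of other libraries hold another spread. The shares of all genes called in the alternative fits are not given here. Their collagen counts show only how the calls depend on the setting. The replicate block changed no other count by over 1.5 times.

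Leaving out 1 library at a time gave 2 to 24 calls on day 10 and 3 to 24 on day 20 in HCC1806 against monolayers, and 3 to 8 for day 20 against day 10. The line difference had 0 to 16, 0 to 20 and 1 to 9 calls for the same 3 comparisons. BT474 gave 2 to 12 on day 10, 3 to 9 on day 20 and 0 to 6 for day 20 against day 10. HCC1806 against BT474 spheroids had 27 to 31 on day 10 and 28 to 33 on day 20. Monolayers had 6 to 17 for CAL148 against HCC1806, 0 to 16 for CAL148 against BT474, 4 to 18 for HCC1806 against ZR-75-30 and 2 to 8 for ZR-75-30 against BT474. A level below 3 counts, 0.0414 to 0.101 CPM by library before TMM adjustment, is too low to be judged at this depth. In the fits with no library left out, 8 members were below the count filter. Of these, 3 passed it in some fits with 1 left out.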
